A study of Mus musculus with 14 samples.

Results

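Genes that mark Kupffer cells, the resident macrophages of the liver, were followed through concanavalin A (ConA) hepatitis in mouse liver RNA. They were taken by symbol: Clec4f, Vsig4, Timd4, Marco, Cd5l, C1qa, C1qb, C1qc, Adgre1 and Cd163, which are 10 of the 17656 genes measured in each library. Expression was given as TPM, a transcript abundance that is scaled to transcript length and sums to the same total in every library. C57BL/6 mice aged 8 weeks were injected through the tail vein with saline or with ConA, a plant lectin that activates T cells and causes hepatitis, at 8 mg/kg, and livers were taken after 8 h. There were 3 wild-type mice given saline (WT saline), 3 mice labelled Ythdf1 knockout given saline (KO saline), 4 wild-type mice given ConA (WT ConA) and 4 labelled Ythdf1 knockout given ConA (KO ConA), 1 library per liver. The knockout, made with CRISPR/Cas9 and not limited to a tissue, removes an m6A reader from every cell type, so that a genotype difference is not tied to any single kind of cell.

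Kupffer cells line the sinusoids, where they take up microbes, dying cells and worn-out erythrocytes from portal blood. They arise before birth, renew themselves in the liver, and depend on signals from the hepatocytes, endothelial cells and stellate cells around them. When they are lost, blood monocytes enter the niche and take on parts of the same gene programme, with Timd4 among the later genes to appear. Of the 10 genes, Clec4f is close to exclusive to Kupffer cells in the mouse, whereas Adgre1, which encodes F4/80, and the C1q genes are shared by many tissue macrophages. In whole liver, fewer Kupffer cells and less RNA of a marker per cell cannot be told apart.

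The 10 loci lie on 7 chromosomes of GRCm38.p6 (RefSeq). C1qb, C1qc and C1qa form a cluster of 18719 bases on chromosome 4, from 136880126 to 136898844, and the other 7 genes lie elsewhere. Clec4f (chromosome 6, 83644542 to 83656116) and Cd163 (chromosome 6, 124304636 to 124330529) share a chromosome but not a neighbourhood. Promoter windows of 300 bases, most of them ahead of the RefSeq start, were held for 8 of the 10 genes, C1qa and Adgre1 being unmatched. Shown are 4 of them, chosen for their contrast after ConA: Clec4f and Vsig4, which lost most of their level in both genotypes, and the clustered C1qb and C1qc, which kept more. Capitals mark GAGGAA on either strand (TTCCTC when it lies on the other strand), the core bound by the myeloid factor PU.1 among other ETS factors.

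Clec4f, chr6:83656067-83656366, minus strand: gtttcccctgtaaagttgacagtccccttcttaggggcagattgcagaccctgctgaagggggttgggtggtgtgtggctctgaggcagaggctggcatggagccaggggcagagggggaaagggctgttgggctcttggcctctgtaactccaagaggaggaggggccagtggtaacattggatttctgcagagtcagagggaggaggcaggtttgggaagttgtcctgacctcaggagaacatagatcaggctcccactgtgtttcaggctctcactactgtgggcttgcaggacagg

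Vsig4, chrX:96293389-96293688, minus strand: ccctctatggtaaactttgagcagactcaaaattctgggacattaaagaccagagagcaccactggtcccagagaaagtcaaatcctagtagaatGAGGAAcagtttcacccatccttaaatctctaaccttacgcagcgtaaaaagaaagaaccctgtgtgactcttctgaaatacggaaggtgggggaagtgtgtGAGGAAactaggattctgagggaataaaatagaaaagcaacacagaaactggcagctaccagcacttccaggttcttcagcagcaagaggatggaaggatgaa

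C1qb, chr4:136886151-136886450, minus strand: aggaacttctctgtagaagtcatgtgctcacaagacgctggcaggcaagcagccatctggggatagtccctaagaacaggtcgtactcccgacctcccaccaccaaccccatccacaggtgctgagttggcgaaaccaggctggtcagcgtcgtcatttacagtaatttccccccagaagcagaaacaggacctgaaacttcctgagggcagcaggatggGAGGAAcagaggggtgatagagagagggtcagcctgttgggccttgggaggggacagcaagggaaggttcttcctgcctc

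C1qc, chr4:136892865-136893164, minus strand: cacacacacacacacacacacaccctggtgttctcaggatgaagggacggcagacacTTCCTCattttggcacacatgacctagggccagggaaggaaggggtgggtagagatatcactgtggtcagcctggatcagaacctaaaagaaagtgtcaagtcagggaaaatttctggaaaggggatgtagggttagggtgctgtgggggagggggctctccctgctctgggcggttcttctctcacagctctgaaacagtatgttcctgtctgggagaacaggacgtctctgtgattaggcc

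GAGGAA was found in 5 of the 8 windows, compared with 28.3% of 32851 mouse promoter windows of the same length. Vsig4 had 2 matches, starting 155 and 53 bases before the start site. Marco, Cd5l, C1qb and C1qc had 1 each, and the windows of Clec4f, Timd4 and Cd163 had none. Of the genes with no match, Clec4f and Cd163 were among the 4 that fell after ConA in each genotype.

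Each library listed 2230 to 2701 genes at 0, and the number of reads behind it is unknown, so errors come from the spread among mice alone. Ythdf1 itself was not lower in the libraries labelled KO. Its level was 12.0, 13.9 and 13.3 TPM in WT saline and 20.8, 18.4 and 18.6 TPM in KO saline. After ConA the WT livers ranged from 18.7 to 25.6 TPM, and the KO livers from 15.5 to 26.2 TPM. A level summed over the gene counts reads from exons that an edit leaves in place, so it does not check the label, and KO below means the libraries labelled so. WT saline 2 and 3 stood unusually close: over the 100 most variable genes their median absolute log2 ratio was 0.116, compared with 0.244 to 1.81 in the other 17 within-group pairs. Counting them as 1 mouse changed no count of called members below. Hepatocyte transcripts dominated every library, with 8 hepatocyte genes such as albumin (Alb) summing to 52801 TPM or more, whereas the 10 Kupffer genes together made up 19.3 to 224 TPM.

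In WT livers ConA lowered 9 of the 10 Kupffer markers, and Marco was the exception. Background was high in this comparison: 31% of the 10768 genes tested were called lower (53% in either direction), so 9 of 10 has to be read against that share. The median log2 fold change of the 10 was -1.54, beside -0.07 for all genes tested. Groups did not overlap, with ConA lower, for 8 of them and for 34.7% of all genes tested. Differences were tested with limma on log2(TPM + 1) and called where the p adjusted by Benjamini-Hochberg was under 0.05. Adgre1 and Cd163 reached 1 TPM in no WT ConA liver and were tested only because of their saline levels, and Vsig4 and Timd4 reached it in 1 of the 4.

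**Figure D1:**
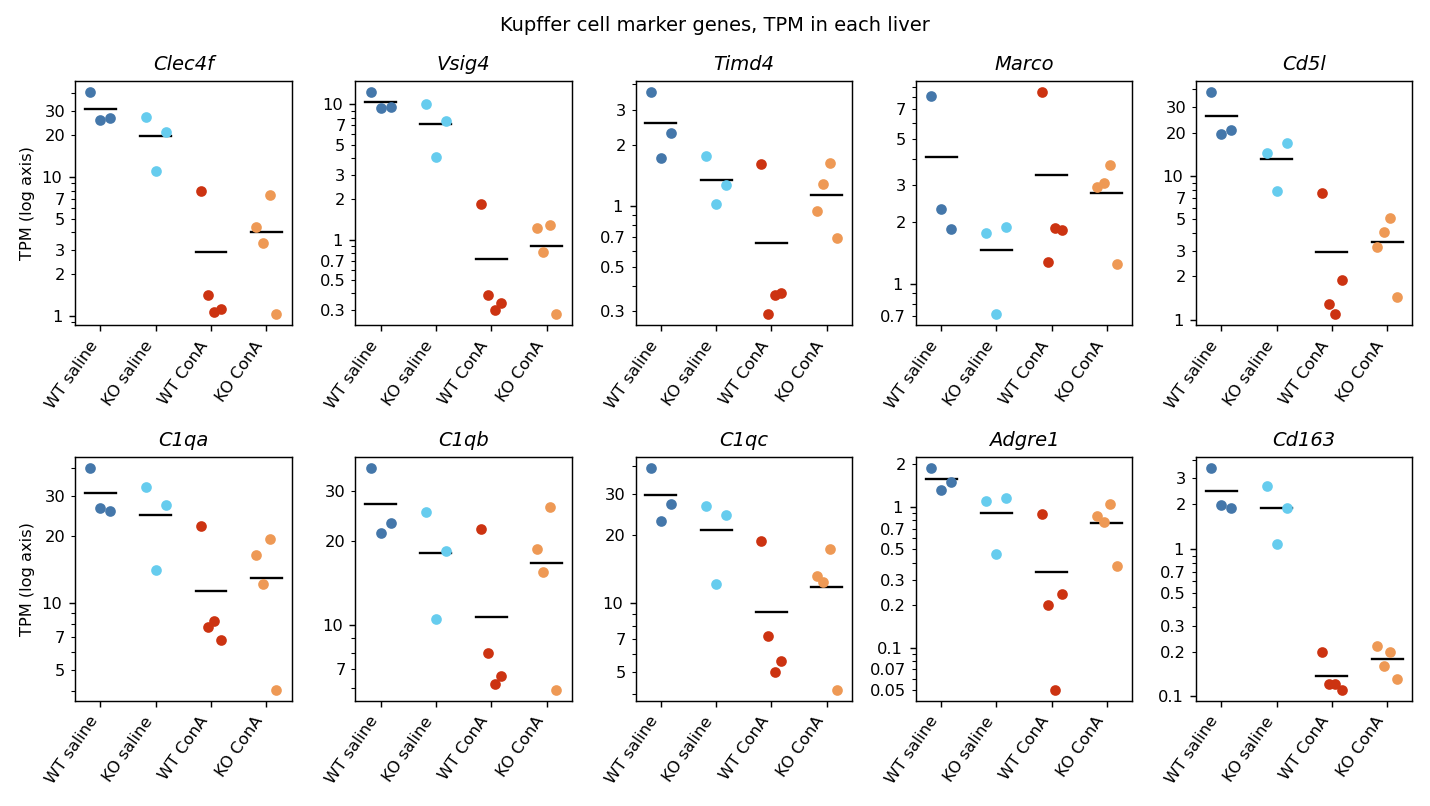
Level of each Kupffer cell marker gene in every liver, in TPM on a log axis, with 1 panel per gene, 1 point per liver and a bar at the group mean (n = 3, 3, 4 and 4). Cd163, Vsig4, Clec4f and Cd5l separate saline from ConA in both genotypes, and the highest WT ConA point in each panel is replicate 1.

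The steepest losses were in Clec4f, Vsig4, Cd163 and Cd5l. Clec4f, a lectin receptor for desialylated glycoproteins, stood at 40.8, 25.6 and 26.5 TPM in WT saline and at 7.98, 1.41, 1.07 and 1.13 TPM in WT ConA. All 4 ConA livers were below all 3 saline livers, although replicate 1 kept several times the level of the others. The log2 fold change was -3.32 (SE 0.48, limma adjusted p = 3.65e-04), and the mean fell to 9.37% of its saline value.

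Vsig4 encodes a complement receptor that captures C3b-coated particles from blood. It fell from 12.3, 9.40 and 9.52 TPM to 1.84, 0.39, 0.30 and 0.34 TPM, with no overlap (log2 fold change -2.81, SE 0.27, limma adjusted p = 3.61e-05). Cd163, the scavenger receptor for haemoglobin bound to haptoglobin, fell from 3.54, 1.98 and 1.88 TPM to 0.20, 0.12, 0.12 and 0.11 TPM. This was the deepest loss on the TPM scale, to 5.57% of the saline mean, and all ConA livers lay under every saline liver, replicate 1 highest among them. Its log2 fold change of -1.58 (SE 0.17, limma adjusted p = 6.97e-05) understates that, because a pseudocount of 1 compresses low genes, and with 0.1 it was -3.39.

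Cd5l, a secreted scavenger protein made by tissue macrophages, fell from 38.3, 19.5 and 20.8 TPM to 7.58, 1.28, 1.09 and 1.89 TPM (log2 fold change -2.98, SE 0.47, limma adjusted p = 5.98e-04). Its groups did not overlap either. Timd4, a phosphatidylserine receptor for dying cells, went from 3.66, 1.73 and 2.30 TPM to 1.61, 0.29, 0.36 and 0.37 TPM. Only replicate 1 of the ConA livers came near the lowest saline liver, and the log2 fold change was -1.13 (SE 0.28, limma adjusted p = 0.0071). Adgre1 fell from 1.89, 1.31 and 1.51 TPM to 0.89, 0.20, 0.05 and 0.24 TPM, again without overlap (log2 fold change -0.97, SE 0.20, limma adjusted p = 0.0032).

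The C1q genes encode the chains of the molecule that starts the classical complement pathway. By mean TPM they fell less than the genes above, to 30.8% (C1qc), 36.3% (C1qa) and 39.8% (C1qb) of saline. On the log2(TPM + 1) scale, which compresses low genes, they fell more than Timd4 and Adgre1, and C1qc fell more than Cd163. C1qa went from 40.2, 26.7 and 25.8 TPM to 22.1, 7.78, 8.29 and 6.81 TPM (log2 fold change -1.51, SE 0.36, limma adjusted p = 0.0060). C1qc went from 39.1, 22.9 and 27.2 TPM to 18.8, 7.23, 5.03 and 5.60 TPM (log2 fold change -1.74, SE 0.39, limma adjusted p = 0.0043). In both genes the ConA livers lay below the saline livers. C1qb went from 36.2, 21.3 and 23.2 TPM to 22.0, 7.99, 6.19 and 6.60 TPM, and replicate 1 of the ConA livers lay above the lowest saline liver. Its log2 fold change of -1.40 (SE 0.39, limma adjusted p = 0.0134) rested on 1 saline liver: without WT saline 1 it was -1.17 with adjusted p = 0.0606.

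Marco, a scavenger receptor that binds bacteria and particles, was 8.16, 2.30 and 1.84 TPM in WT saline and 8.48, 1.28, 1.87 and 1.83 TPM in WT ConA. Replicate 1 of each group stood far above the rest, and the groups overlapped throughout. The log2 fold change was -0.28 with a 95% interval of -1.49 to 0.93 (limma adjusted p = 0.692), an interval that holds sizeable changes in either direction. Without WT saline 1 its sign turned (0.25).

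In KO livers 4 of the 10 markers fell after ConA, namely Clec4f, Vsig4, Cd5l and Cd163, and 6 did not pass the test. Of the 10988 genes tested here, 30.7% were called lower (64.6% in either direction), so the share of members called lay near the background. The median log2 fold change was -0.92 for the members and 0.07 for all genes. The 4 called genes were also the 4 whose groups did not overlap, as was the case, with ConA lower, for 31.5% of all genes tested. Cd163 reached 1 TPM in no KO ConA liver and was tested only through its saline level.

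**Figure D2:**
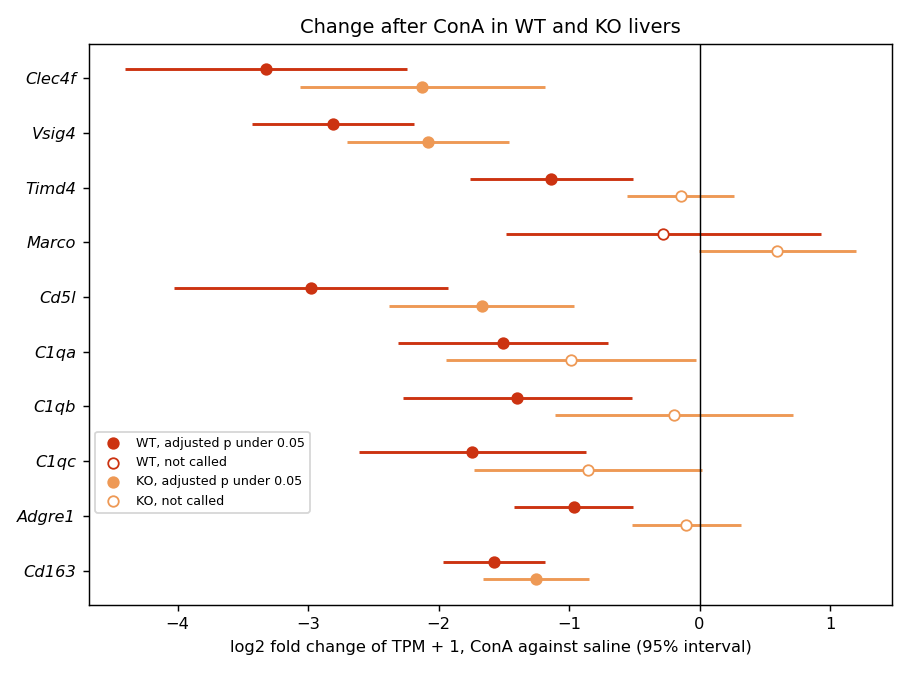
Log2 fold change of TPM + 1 after ConA for each marker in WT (red) and KO (orange) livers, with 95% intervals from limma. Filled points passed an adjusted p of 0.05: 9 genes in WT and 4 in KO, all lower, while Marco in KO lay at 0.60.

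Clec4f went from 27.0, 11.1 and 21.0 TPM in KO saline to 4.41, 3.34, 7.40 and 1.03 TPM in KO ConA (log2 fold change -2.13, SE 0.43, limma adjusted p = 0.0012). Cd5l went from 14.4, 7.91 and 16.9 TPM to 3.21, 4.11, 5.11 and 1.45 TPM (log2 fold change -1.67, SE 0.32, limma adjusted p = 8.75e-04). Every ConA liver was lower than every saline liver for both genes, and replicate 4 was the lowest of the ConA livers. Vsig4 fell from 10.1, 4.09 and 7.49 TPM to 1.21, 0.81, 1.29 and 0.28 TPM (log2 fold change -2.08, SE 0.28, limma adjusted p = 7.23e-05). Cd163 fell from 2.66, 1.08 and 1.89 TPM to 0.22, 0.16, 0.20 and 0.13 TPM, which was 9.46% of the saline mean (log2 fold change -1.25, SE 0.18, limma adjusted p = 1.37e-04).

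C1qa was 32.9, 14.1 and 27.4 TPM in KO saline and 16.3, 12.1, 19.3 and 4.06 TPM in KO ConA (log2 fold change -0.98, 95% interval -1.94 to -0.02, limma adjusted p = 0.0673). C1qc was 26.5, 12.2 and 24.3 TPM before and 13.2, 12.4, 17.3 and 4.18 TPM after (log2 fold change -0.86, interval -1.73 to 0.02, limma adjusted p = 0.0784). For both, KO saline 2 overlapped the ConA livers. C1qa was called lower without KO saline 2 (-1.33, limma adjusted p = 0.0277), without KO ConA 1 (-1.14, limma adjusted p = 0.0493) and without KO ConA 3 (-1.22, limma adjusted p = 0.0375). C1qc was called without KO saline 2 (-1.19, limma adjusted p = 0.0288) and without KO ConA 3 (-1.08, limma adjusted p = 0.0412). Other livers pulled the other way: without KO ConA 4 the values shrank to -0.55 for C1qa (limma adjusted p = 0.119) and -0.47 for C1qc (limma adjusted p = 0.153), and without KO saline 1 to -0.74 (limma adjusted p = 0.219) and -0.66 (limma adjusted p = 0.238).

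C1qb was 25.2, 10.5 and 18.3 TPM in KO saline and 18.7, 15.5, 26.3 and 5.90 TPM in KO ConA, with the highest value of all in a ConA liver. Its log2 fold change was -0.19 (interval -1.11 to 0.72, limma adjusted p = 0.694), and it turned to 0.08 without KO saline 1 and to 0.20 without KO ConA 4. Timd4 was 1.76, 1.02 and 1.27 TPM in saline and 0.94, 1.28, 1.64 and 0.69 TPM in ConA livers, so the groups were intermingled (log2 fold change -0.14, interval -0.56 to 0.27, limma adjusted p = 0.514). Adgre1 was 1.10, 0.46 and 1.15 TPM and then 0.86, 0.78, 1.05 and 0.38 TPM, again intermingled (log2 fold change -0.10, interval -0.52 to 0.32, limma adjusted p = 0.658). Without KO ConA 4 the Adgre1 value was 0.014. Marco was the member with a positive value, at 1.77, 0.71 and 1.88 TPM in saline and 2.94, 3.08, 3.74 and 1.24 TPM after ConA. In 3 of the 4 ConA livers it exceeded all saline livers (log2 fold change 0.60, interval -0.0049 to 1.2, limma adjusted p = 0.0754), and without KO ConA 4 Marco was called higher (0.83, limma adjusted p = 0.0085).

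Passing the test in WT and not in KO does not show a difference between genotypes, so the interaction was fitted over all 14 libraries. All 10 estimates were positive, meaning a smaller fall or a larger rise in KO, but limma called 0 of the 10, beside 4.78% of the 11327 genes tested. At an unadjusted p under 0.05 there were 2, Timd4 and Adgre1, a share below the 25.3% of all genes tested that met it. The median was 0.88 for the members and 0.14 for all genes, and rescaling moved the all-gene median by -0.14 or -0.11 without changing the member count. Adgre1 gave 0.86 (SE 0.29, limma adjusted p = 0.0893), Timd4 0.99 (SE 0.35, limma adjusted p = 0.107) and Cd5l 1.31 (SE 0.63, limma adjusted p = 0.208). The widest interval was that of Clec4f, at 1.19 with bounds of -0.35 and 2.74. WT ConA 1 weighed on this result: without it Timd4 (1.23, limma adjusted p = 0.0311), Cd5l (1.77, limma adjusted p = 0.0454) and Adgre1 (1.04, limma adjusted p = 0.0348) were called, and leaving out any other single library gave 0 calls.

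Before any ConA, KO livers held less of these transcripts on average, but no member passed the test. All 10 log2 fold changes of KO saline against WT saline were below 0, with a median of -0.56 beside -0.10 for all genes. Limma called 0 of 10, beside 19.2% of 10459 genes tested, and 3 had an unadjusted p under 0.05, as did 38.8% of all genes: Cd5l (-0.95, SE 0.32, limma adjusted p = 0.0744), Timd4 (-0.58, SE 0.21, limma adjusted p = 0.0876) and Adgre1 (-0.45, SE 0.17, limma adjusted p = 0.104). Cd5l and Adgre1 were the 2 whose groups did not overlap, a share below the 29.2% of all genes whose KO saline livers lay under the WT livers. The Cd5l mean was 13.1 TPM in KO and 26.2 TPM in WT saline. C1qa (-0.36, interval -1.07 to 0.36) and Cd163 (-0.27, interval -0.85 to 0.30) were nearest to 0. The 10 genes summed to 224, 133 and 141 TPM in WT saline and to 143, 63.2 and 122 TPM in KO saline, so the highest KO liver exceeded the lower pair of WT livers.

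In ConA-treated livers the genotypes could not be separated by any marker. Of the 10 genes, 6 passed the filter on low values. Limma called 0 of them, beside 0.428% of 10519 genes tested, with 0 at an unadjusted p under 0.05 (16.7% of all genes), and in no member were the groups apart (10.5% of all genes, in either direction). The intervals were wide. Clec4f gave 0.52 (interval -0.61 to 1.64), C1qb 0.61 (interval -0.38 to 1.59), Cd5l 0.36 (interval -0.58 to 1.31), C1qc 0.37 (interval -0.59 to 1.33), C1qa 0.17 (interval -0.81 to 1.15) and Marco -0.01 (interval -0.91 to 0.89). Vsig4, Timd4, Adgre1 and Cd163 were too low to be tested, and in a fit with no filter their values were 0.19, 0.41, 0.42 and 0.05 with limma adjusted p between 0.368 and 0.808. Their levels for WT and KO are given above, and Adgre1 had the largest ratio of means, 0.77 TPM in KO against 0.35 TPM in WT.

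Among themselves the 10 genes rose and fell together from liver to liver within each group. WT saline 1 was the highest of its group for all 10 genes and WT ConA 1 was the highest for all 10. KO saline 2 and KO ConA 4 were the lowest of their groups for all 10, and KO ConA 3 was the highest for 9. Averaged over the members, WT ConA 1 lay 0.98 above its group mean on the log2(TPM + 1) scale and KO ConA 4 lay 0.75 below. With 10 genes of the same libraries, these counts describe the livers and are not 10 independent observations.

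**Figure D3:**
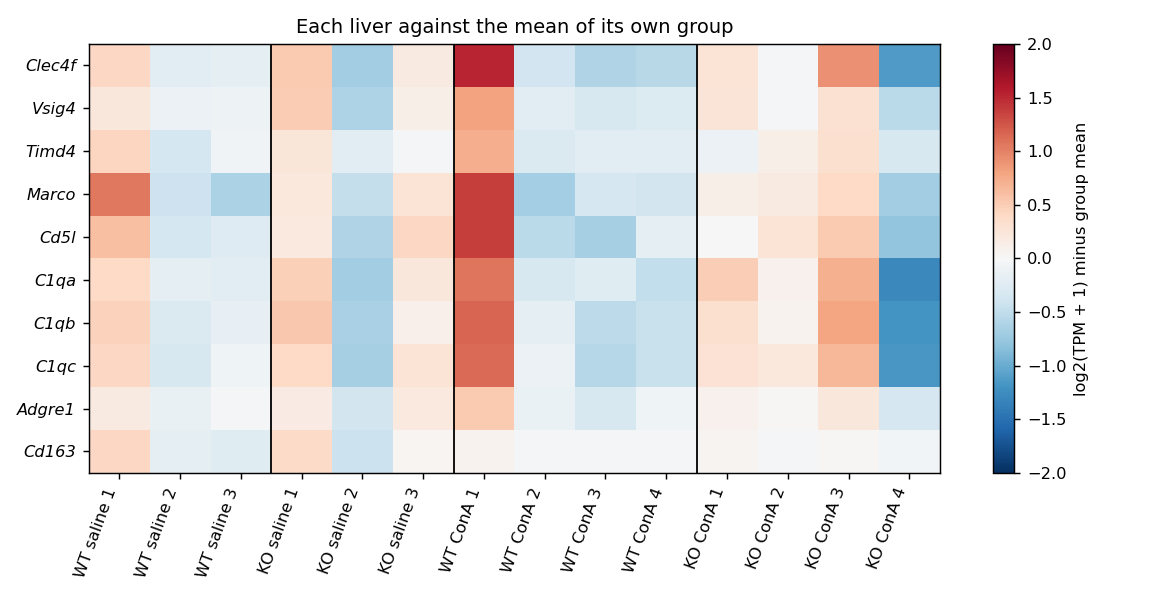
Deviation of each marker in each liver from the mean of its own group, in log2(TPM + 1), red above and blue below. Whole columns share a colour: WT ConA 1 is above its group in every row and KO ConA 4 is below in every row.

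WT saline 1, WT ConA 1, KO saline 2 and KO ConA 4 also stood at the end of their groups for genes of neighbouring cell types, but KO ConA 3 did not. The 12 sinusoidal endothelial genes summed to 59.7 TPM in WT ConA 1 and to 26.4, 24.2 and 26.8 TPM in the other WT ConA livers, and the 8 stellate cell genes to 136 TPM against 83.8, 57.3 and 66.5 TPM. In KO ConA 4 these sums were 29.5 and 97.5 TPM, the lowest of the group, compared with 45.1 to 72.6 and 180 to 190 TPM in the other 3. KO ConA 3, at 61.2 and 187 TPM, lay under KO ConA 1, at 72.6 and 190 TPM. WT saline 1 led its group in both sums (41.9 and 135 TPM) and KO saline 2 was the lowest of its own (49.1 and 160 TPM). The ordering was not limited to these cell types. WT ConA 1 was also highest of its group in the pan-macrophage (188 TPM) and neutrophil (594 TPM) sums, though not in the monocyte sum. KO ConA 4 was lowest of its group in the same sums (122 and 437 TPM) and in the monocyte sum (43.4 TPM). The part of this shared ordering in the marker results was not tested. In saline livers, 8 of the 11 endothelial genes tested and 3 of the 8 stellate genes were higher in KO, beside 19.2% of all genes called in either direction. No Kupffer marker was called there, though all 10 estimates were below 0. Divided by the endothelial sum, the summed marker level was 4.49 to 5.35 in WT saline livers and 1.29 to 1.87 in KO saline livers. After ConA the quotient was 0.93 to 1.53 in WT and 0.66 to 1.36 in KO.

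ConA also changed the proportions among the markers, a measure that does not depend on how a library is scaled. The C1q genes made up 51.5% to 59.0% of the summed level in the 6 saline livers and 68.7% to 82.2% in the 8 ConA livers. Clec4f and C1qc were near parity in saline livers, with ratios of 0.87 to 1.12, and Clec4f was at 0.195 to 0.428 of C1qc after ConA. WT ConA 1, with the highest summed level of its group, had a ratio of 0.425, beside 0.195, 0.213 and 0.202 in the other WT ConA livers. It also had the lowest C1q share of the ConA livers, 68.7%, so its proportions lay nearer to those of saline livers. Within the C1q cluster the C1qb to C1qc ratio moved from between 0.75 and 0.95 to between 1.11 and 1.52. These ranges are descriptions, with no test.

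**Figure D4:**
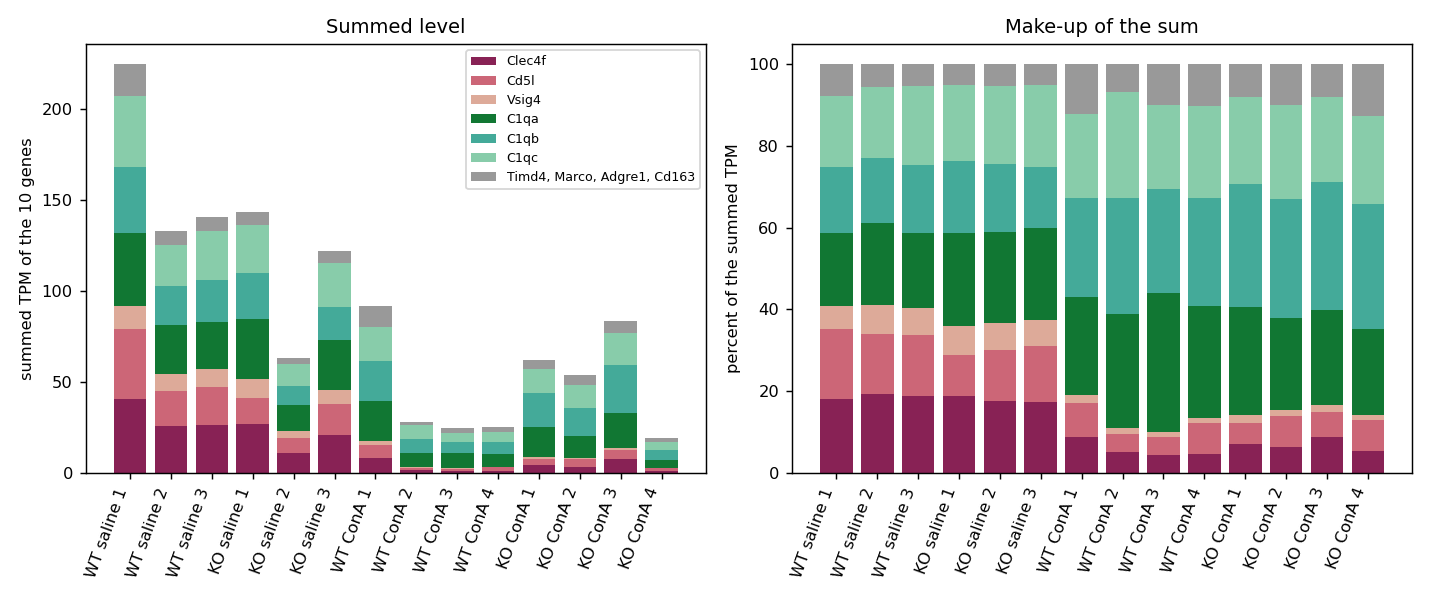
Summed TPM of the 10 marker genes in each liver (left) and the percent of that sum taken by each gene (right). The sum runs from 19.3 TPM in KO ConA 4 to 224 TPM in WT saline 1, and the green C1q share is larger in every ConA liver than in any saline liver.

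Other genes known from Kupffer cells did not all fall. Of 20 listed, 18 were tested in WT livers, where 10 were lower and 4 higher after ConA, and in KO livers 8 were lower and 5 higher. Of all genes tested, 31% were called lower in WT (53% in either direction) and 30.7% in KO (64.6% in either direction). Their median log2 fold changes were -0.94 in WT and -0.64 in KO, beside -0.07 and 0.07 for all genes. The largest rises were in Irf8, a macrophage and interferon-response transcription factor (4.64, limma adjusted p = 8.87e-06 in WT), and Hmox1, the haem-degrading enzyme (4.44, limma adjusted p = 1.07e-06). Id3, a transcription regulator of Kupffer cell identity and the most abundant gene of the list, also rose (2.87, limma adjusted p = 1.57e-06). All 3 are expressed in other liver or inflammatory cells as well.

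Markers of macrophages in general went both ways, no more often than genes at large. Of 14 pan-macrophage genes tested in WT, 3 rose and 3 fell after ConA, and in KO 4 rose and 3 fell. Among all genes tested in WT, 2368 of 10768 were called higher and 31% lower. In KO, 30.7% were called lower and 64.6% in either direction. Csf1r, the receptor for macrophage colony-stimulating factor, fell (-1.63, limma adjusted p = 2.78e-04), whereas Mpeg1, a pore-forming protein of phagocytes and the most abundant of the list, rose (2.12, limma adjusted p = 4.00e-04). The summed marker level was 1.12 to 1.55 times the pan-macrophage sum in saline livers and 0.16 to 0.49 times in ConA livers.

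Genes listed for monocytes and neutrophils rose in the same livers. More of these cells and more RNA of these genes per cell cannot be told apart in whole liver. Of 8 monocyte genes tested in WT, 7 were higher, led by Chil3 (3.86, limma adjusted p = 6.72e-07), and 7 of 7 were higher in KO. Plac8, the most abundant, rose by 1.67 (limma adjusted p = 0.0012). Of 12 neutrophil genes, 11 were higher in each genotype, led by the calgranulins S100a9 (6.30, limma adjusted p = 8.31e-07) and S100a8 (5.78, limma adjusted p = 8.31e-07). Ly6g was the exception, at -1.15 in WT (limma adjusted p = 0.0631) and -0.21 in KO (limma adjusted p = 0.370). Among all genes tested, 2368 of 10768 were called higher in WT, and 64.6% of 10988 were called in either direction in KO. The neutrophil sum was 5.56 to 12.0 TPM in saline and 337 to 1008 TPM in ConA livers, and the monocyte sum 12.1 to 22.3 and 43.4 to 135 TPM. Of the hepatocyte genes, 7 of 8 were lower in each genotype, beside 31% of all genes tested in WT and 30.7% in KO. In WT the largest falls were in Pck1 (-2.21, limma adjusted p = 3.41e-05), an enzyme of glucose production, and Cyp2e1 (-1.91, limma adjusted p = 2.20e-05), a drug-metabolising enzyme. In KO Cyp2e1 fell by 0.74 (limma adjusted p = 0.0026), the smallest of the 7 falls there, and its interaction was called (1.17, limma adjusted p = 0.0280). Because TPM sum to a fixed total, the part of these shifts in the lower marker levels was not tested.

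**Figure D5:**
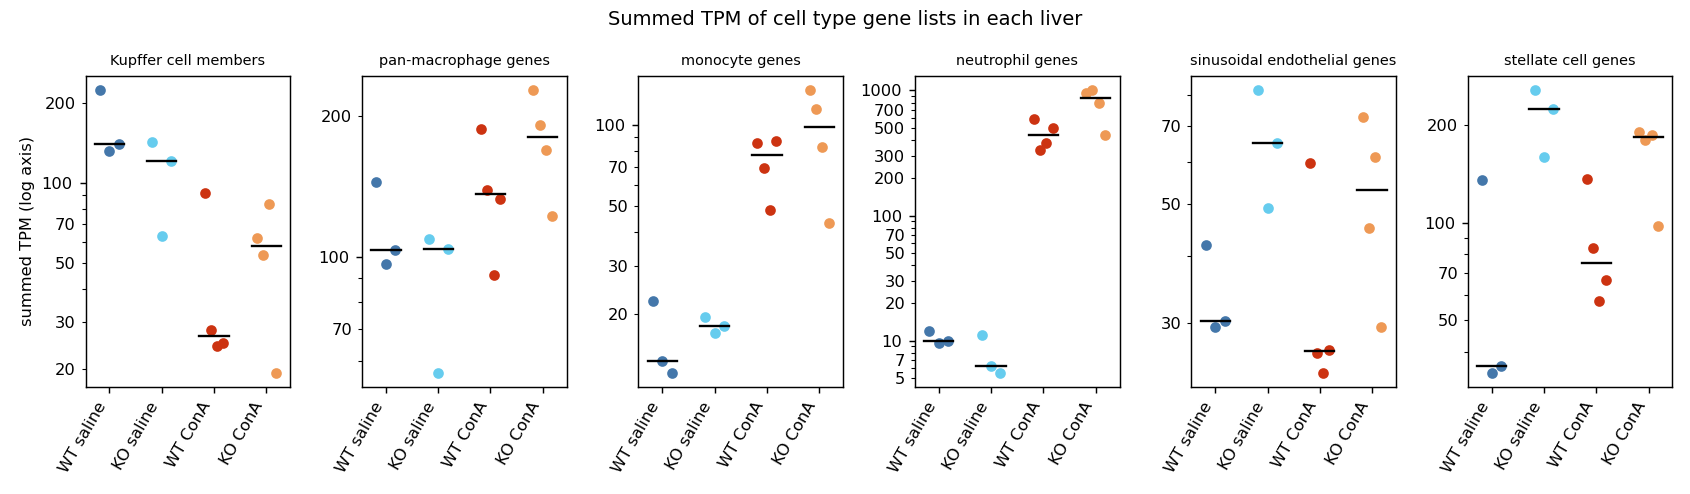
Summed TPM of the Kupffer markers and of 5 other cell type lists in each liver, on log axes, with a bar at the group median. The marker sum is 24.4 to 91.5 TPM in WT ConA against 133 to 224 TPM in WT saline, and in KO the groups overlap (19.3 to 83.3 against 63.2 to 143 TPM), while monocyte and neutrophil sums are higher in every ConA liver than in any saline liver. WT ConA 1 is high for the markers, the endothelial genes and the stellate genes alike.

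Genes of the niche around the cells changed in both directions. Among all genes tested, 31% were called lower in WT (53% in either direction) and 30.7% in KO (64.6% in either direction). The WT counts of stellate and endothelial genes did not exceed these shares, whereas their KO counts of lower genes did. In WT livers 1 of 4 stellate genes tested was lower (Colec11, a collectin, -1.58, limma adjusted p = 0.0136), while Ecm1, the most abundant, gave 0.78 (limma adjusted p = 0.222). Of 11 endothelial genes, 3 were lower and 2 higher. The largest changes were in Clec4g (LSECtin), a lectin of sinusoidal endothelium (-1.69, limma adjusted p = 0.0046), and Lyve1, a hyaluronan receptor (1.51, limma adjusted p = 0.0067), while Fcgr2b gave 0.18 (limma adjusted p = 0.519). Of the Kupffer niche signals, Csf1, the survival factor of macrophages, rose in WT (1.57, limma adjusted p = 1.10e-04), as did Tgfb1 (0.72, limma adjusted p = 0.0312), 2 of 4 tested. In KO livers 5 of 8 stellate genes were lower, 6 of 12 endothelial genes were lower and 3 higher, and of 5 niche signals tested 2 were higher and 1 lower. The lower signal, named after its values were seen, was Gdf2, a BMP ligand (-1.52, limma adjusted p = 7.16e-05). The ligand Csf1 rose in the livers where its receptor, Csf1r, fell. None of the lists named here had a member called in KO ConA against WT ConA.

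Genes with the most similar pattern were sought for the 9 members called in at least 1 comparison, among 10634 other genes, by the mean absolute difference of centred log2(TPM + 1) over the 14 libraries. Folr2, a folate receptor of tissue macrophages, was nearest to all 3 C1q genes, with differences of 0.23 for C1qa, 0.24 for C1qb and 0.16 for C1qc, and Cfp, which encodes properdin, was second for each. Cfp was also nearest to Timd4 (0.19), followed by Treml4 (0.21). Fmo2 (0.28) and Cxcl12 (0.30) were nearest to Vsig4, and Gm4952 (0.49) and Cxcl12 (0.51) to Clec4f. Clec2h (0.44) and Gngt2 (0.46) were nearest to Cd5l, Ehbp1 (0.17) and Cd300a (0.17) to Adgre1, and Dock8 (0.13) and Ptgs1 (0.15) to Cd163. Low genes give small differences on this scale, so the values compare candidates for a single member and not members with each other. Inside the set, the closest pairs were C1qa with C1qc (0.13) and Timd4 with Adgre1 (0.14).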

How the data were processed

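Liver RNA of 14 mice was sequenced by the authors on a BGISEQ-500 as single-end reads of 50 bases. The deposited values are TPM per gene, 1 file per library, already length-scaled by the authors. Their methods name STAR and HTSeq, whereas the submitters' processing notes name Bowtie2, RSEM 1.3.1 and GRCm38.p6, so how reads shared between genes were assigned is uncertain. No read totals are held, so no counting error could be given.

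Genes were tested with limma 3.58.1 (R 4.3.3; lmFit, eBayes with trend, two-sided) on log2(TPM + 1) if TPM reached 1 in at least the number of libraries of the smaller group, with Benjamini-Hochberg adjustment over all genes tested. Comparisons between 2 groups used their libraries, and the interaction all 14. The study tested counts with edgeR, which TPM do not allow. Fold changes are on the log2(TPM + 1) scale and understate changes of low genes. On simulated data with a log2 change of 1, 55% (interaction) to 80% (KO ConA against WT ConA) of changed genes were recovered. The changed genes were drawn from those at 1 TPM or more in every library, with independent noise. Vsig4, Timd4, Marco, Adgre1 and Cd163 fell outside that choice. The 6 members tested in KO ConA against WT ConA had SE of 0.41 to 0.51. These shares are therefore not the power for the markers, which was not measured.

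The members and the gene lists were chosen with earlier results of these data known. Named from each list were the most abundant gene over the 14 libraries and the 2 called genes with the largest absolute change in WT ConA against WT saline; none was called in KO ConA against WT ConA. For each called member the 2 most similar genes were named. Some named items and motif searches are not reported here. Alternatives covered the pseudocount (0.1), the filter (TPM of 5, or none), 2 rescalings, all libraries in the fit, robust moderation, a fold minimum, a replicate block, WT saline 2 and 3 averaged, and each library left out. Promoters and coordinates came from RefSeq (GRCm38.p6), in which 17604 of 17656 gene identifiers were found.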

Additional observations from a re-analysis of the deposited data

Results flagged for a closer look

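WT ConA replicate 1 lay apart from the other 3 WT ConA livers for 9 of the 10 markers and for their sum, by the gap to its nearest neighbour relative to the range of the group. It stood at 7.98 TPM for Clec4f (others 1.07 to 1.41), 1.84 TPM for Vsig4 (0.30 to 0.39), 1.61 TPM for Timd4 (0.29 to 0.37) and 8.48 TPM for Marco (1.28 to 1.87). It also stood at 7.58 TPM for Cd5l (1.09 to 1.89), 22.06 TPM for C1qa (6.81 to 8.29), 22.04 TPM for C1qb (6.19 to 7.99), 18.77 TPM for C1qc (5.03 to 7.23) and 0.20 TPM for Cd163 (0.11 to 0.12). The sum of the 10 genes was 91.45 TPM in this liver and 24.37 to 27.97 TPM in the others. In all, 22 groups of 4 livers were examined and 10 were singled out, where chance gives about 1 in 20, but all 10 come from 1 library whose markers move together, so they count as 1 observation. The sinusoidal endothelial and stellate sums of this liver were high as well, and their part in the result was not tested. Without this liver, WT ConA against WT saline had 9 members called, and the interaction went from 0 to 3.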

How the results depend on the processing

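In WT ConA against WT saline 6 (TPM filter of 5) to 9 members were called under the alternatives run, and 0 throughout in KO ConA against WT ConA. The number in KO ConA against KO saline was 2 (Clec4f and Cd5l) with a TPM filter of 5, which left 5 members to test. A replicate block raised KO saline against WT saline to 6 members, all lower (Clec4f, Timd4, Cd5l, C1qb, C1qc and Adgre1), and KO ConA against KO saline to 6 (5 lower and Marco higher), where it also drops KO ConA 4; Marco was called without that liver and with no block as well. The replicate numbers were not shown to pair the mice, since same-numbered livers did not deviate together in all pairs. With a single library left out the interaction ranged from 0 to 3 called members. Signs turned only for values that were not called. Under the replicate block in KO ConA against KO saline these were C1qb (0.20) and Adgre1 (0.014). Leaving out single libraries gave Marco -0.74 to 0.25 in WT ConA against WT saline, C1qb -0.52 to 0.20 and Adgre1 -0.28 to 0.014 in KO ConA against KO saline, and Marco -0.24 to 0.45 and C1qa -0.072 to 0.60 in KO ConA against WT ConA. In that last comparison Marco was 0.036 with a pseudocount of 0.1. An alternative chosen after seeing the data, both ConA replicates 3 left out, gave Cd5l -0.034, C1qa -0.15 and C1qc -0.043. For these changes the cause was not tested. A fold minimum of 1 ended the Adgre1 call in WT. With WT saline 2 and 3 averaged, 9, 0 and 0 members were called in the 3 comparisons that use them. A rescaling shifted the all-gene median by up to 0.13 in WT ConA against WT saline. Levels near 1 TPM limit Cd163, Adgre1, Timd4 and Vsig4 in ConA livers. With 3 or 4 livers per group, many intervals, though not all, were wide enough to hide log2 differences of 1. Among the narrower were Timd4 (-0.56 to 0.27) and Adgre1 (-0.52 to 0.32) in KO ConA against KO saline, low genes whose changes the pseudocount compresses.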

Other observations

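Partners of C1q in the classical pathway rose after ConA. Of 6 partners of the C1 complex made largely by hepatocytes, 5 were higher after ConA in each genotype, among them C3, the central component and the most abundant (0.82 in WT, limma adjusted p = 0.0012; 1.34 in KO, limma adjusted p = 1.05e-05), and C1s1, the protease of the complex (0.59, limma adjusted p = 0.0161; 0.89, limma adjusted p = 5.02e-04). For comparison, 53% of all genes tested were called in either direction after ConA in WT and 64.6% in KO. In saline livers 5 of the 6 were lower in KO than in WT, where 19.2% of all genes tested were called in either direction. C3 was not called there (-0.39, limma adjusted p = 0.0867). The summed partner level was 3464 to 5460 TPM in saline and 7338 to 9703 TPM in ConA livers. C2 was not called in either genotype (0.21 in WT, limma adjusted p = 0.215; 0.25 in KO, limma adjusted p = 0.0943). The C1q genes were called lower in WT and none of the 3 was called in KO.

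Some of the genes listed for macrophage activation rose after ConA. Of 7 tested in WT, 4 were higher, led by Nos2, inducible nitric oxide synthase (5.15, limma adjusted p = 1.78e-07), and the cytokine Tnf (2.44, limma adjusted p = 5.76e-06). In KO, 7 of 9 were higher and 1 lower. Shares of all genes tested that were called in either direction were 53% in WT and 64.6% in KO. Which cells of the liver these transcripts came from was not tested. Arg1, the most abundant gene of that list and chiefly a hepatocyte gene of the urea cycle, gave -0.37 in WT (limma adjusted p = 0.207) and was the lower gene in KO (-0.83, limma adjusted p = 0.0014). Of the Kupffer-associated genes, 1 outside the naming rule and chosen after its values were seen fell in both genotypes: Slc40a1, the iron exporter ferroportin (-2.64 in WT, limma adjusted p = 5.01e-05; -2.60 in KO, limma adjusted p = 3.08e-05). T and NK cell, B cell and dendritic cell genes were mostly under the filter, with 1 of 9, 1 of 5 and 0 of 6 tested in WT, and Nkg7 was the T and NK cell gene that rose (0.97).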
